A study of Homo sapiens with 6 samples.

Results

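The BCL2 family, the caspases, the inhibitor of apoptosis (IAP) genes and their adaptors form the core machinery of programmed cell death, and 35 such genes were followed in cultured glioma cells in which TEAD3 had been knocked down. The genes were taken by name: 5 anti-apoptotic BCL2 proteins, 2 other BCL2 homologues, 3 pore-forming effectors, 8 BH3-only genes, 6 initiator or inflammatory caspases, 1 executioner caspase, 5 adaptors and regulators of caspase activation, and 5 IAP genes or antagonists of IAP proteins. All 35 had a row among the 60612 genes of the count table. Of these, 34 had enough counts to be tested among 17723 genes, and HRK did not. The libraries came from U251, an established human glioma line, with 3 libraries labelled TEAD3 Knockdown and 3 labelled Normal Control. The knockdown was transient, and the labels speak of a plasmid vector as well as an siRNA and do not name what control cells received. All 6 libraries are of 1 cell line, and no label says that they came from separate cultures, so the p-values rest on a spread between libraries that may be technical only.

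In the mitochondrial route to apoptosis, BH3-only proteins bind and block the anti-apoptotic BCL2 proteins or activate BAX and BAK1, which then open the outer mitochondrial membrane. Released cytochrome c joins APAF1 and CASP9 in the apoptosome, while released DIABLO and HTRA2 relieve the block that IAP proteins place on caspases. In the death receptor route, FADD and TRADD recruit CASP8, CASP10, RIPK1 and CFLAR to the receptor, and BID carries the signal from CASP8 to mitochondria. Gliomas are known for high levels of anti-apoptotic BCL2 proteins and for resistance to death receptor ligands. Much of the control in both routes acts on proteins, through binding, cleavage and degradation, and is not visible in transcript counts.

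Control of the labels came first. TEAD3, a DNA-binding partner of YAP1 and TAZ, was at 4.70, 8.35 and 6.08 CPM (counts scaled to a common library size with TMM factors) in the knockdown libraries, against 14.9, 20.3 and 21.0 CPM in the controls (log2 fold change -1.55, SE 0.218, edgeR adjusted p = 0.0114). The edgeR adjusted p was above 0.05 with no filter on low counts (0.0639). It was also above 0.05 without knockdown replicate 1 (0.0532), knockdown replicate 3 (0.0938) or control replicate 3 (0.0541). With 1 library left out, the log2 fold change of TEAD3 lay between -1.80 (knockdown replicate 2) and -1.37 (knockdown replicate 1). Library totals lay between 63145768 and 64808615 counts in the knockdown and between 58344026 and 63685272 in the controls. Among markers of the astroglial lineage, VIM averaged 3679 and 4484 CPM and NES 186 and 185 CPM in knockdown and control cells, but GFAP was at only 0.572 and 1.46 CPM and S100B at 0.197 and 0.374 CPM. The 8 astroglial markers summed to 4535 to 5099 CPM in the knockdown and 5470 to 6054 CPM in the controls. Most of each sum was VIM. Of the 8, 1 was above 0 on the log2 scale, with a median of -0.23. None was called by edgeR, against 0.655% of all tested genes. At an unadjusted p under 0.05, 3 were lower, against 7.43% of all tested genes. In 4 (VIM, GFAP, SOX2 and SOX9) the knockdown libraries lay below every control, against 10.6% of all tested genes. Of 16 markers of blood, endothelial, epithelial, neuronal and oligodendrocyte cells, 10 were under 1 CPM in every library, and the summed level of the 16 was 321 to 351 CPM in the knockdown and 336 to 414 CPM in the controls. Their part in the results was not tested. Control replicates 1 and 2 had the strongest trends with GC content, in opposite directions. Deviations from the mean of all libraries were correlated with GC content across 9953 protein-coding genes (Spearman, over genes of 1 library each). The correlation was -0.60 in control replicate 1 and 0.70 in control replicate 2. It was -0.14 to 0.22 in the knockdown libraries and -0.25 in control replicate 3. Deviations of all libraries cancel out for each gene, so a trend in 1 library bears on those of the others. With transcript length, the correlation was -0.32, -0.13 and -0.051 in the knockdown libraries, against 0.32, -0.091 and 0.29 in the controls. The trend with length therefore partly followed the groups. Control replicate 2 was the control farthest from the median of its group for 25 of the 34 tested genes, and control replicate 1 for 4. Knockdown replicate 1 was the farthest knockdown library for 18.

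None of the 34 genes was called at an edgeR adjusted p under 0.05 (quasi-likelihood test, Benjamini-Hochberg over all genes tested), where 0.655% of all tested genes were called. At an unadjusted p under 0.05 there were 9 of the 34 genes (26.5%), 4 higher (BMF, BOK, CASP1 and CASP4) and 5 lower (RIPK1, BCL2L11, CASP2, BCL2L1 and APAF1) in the knockdown, against 15.6% of all tested genes (8.15% higher and 7.43% lower). With control replicate 2 left out the 9 became 13, with knockdown replicate 3 left out 2, and with control replicate 3 left out 5. In those 3 fits the share of all tested genes at this p was not taken, so these counts are not results about the members. At an edgeR adjusted p under 0.05, those fits called 3.19%, 0.109% and 0.232% of all genes tested. The knockdown and control libraries did not overlap for 7 genes (20.6%), 4 higher and 3 lower, against 21.6% of all tested genes (11% higher and 10.6% lower). DESeq2 called 2 of the genes, CASP4 as higher and RIPK1 as lower, against 5.43% of all genes it adjusted. After correction of each library for transcript length and GC content, edgeR called 1, RIPK1 as lower, against 3.18% of all tested genes. The median log2 fold change of the 34 genes was 0.0039, beside -0.0012 over all tested genes. Exons of MCL1, BCL2L1, BCL2L2, BAK1, BAD, BBC3, CASP6, CASP9, FADD, TRADD, CFLAR, BIRC6 and DIABLO overlap other genes. So do those of BCL2L12, BOK, BMF, BCL2L11, APAF1, RIPK1 and HTRA2, as given below. Reads of overlaps on opposite strands cannot be told apart where strand was not used. MCL1, BCL2L2, BBC3, CFLAR and DIABLO also have overlaps on the same strand, which strand would not separate. Since RNA was taken from whole cultures, fewer cells that express a gene and less RNA per cell cannot be told apart.

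**Figure D1:**
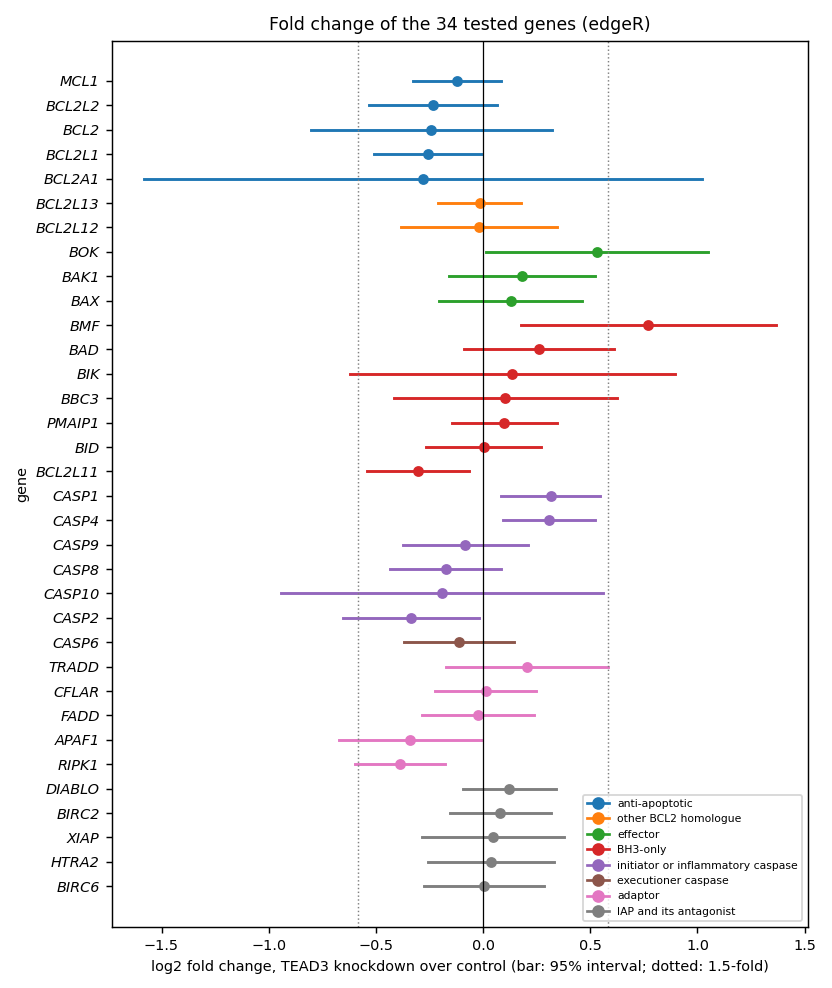
Log2 fold change (knockdown over control) of each tested gene on the horizontal axis, grouped and coloured by role, with its 95% interval as a bar and dotted lines at a 1.5-fold change. BMF and BOK lie farthest to the right, RIPK1 lies farthest to the left, and 23 of the 34 intervals stay between the dotted lines.

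The size of the change that remained possible was limited for most of the genes. The 95% interval of the fold change lay wholly within 1.5-fold in either direction for 23 of the 34 genes (67.6%, against 49.2% of all tested genes) and within 2-fold for 31. The 3 genes with wider intervals were BCL2A1, BOK and BMF, all under 7 CPM in every library. All 5 IAP genes and antagonists had intervals within 1.5-fold, as had 3 of the 5 anti-apoptotic genes (MCL1, BCL2L1 and BCL2L2) and 2 of the 3 effectors (BAX and BAK1).

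Promoter sequences were compared because TEAD3 is a DNA-binding factor. RefSeq windows of 300 bases around 1 start site per gene (250 bases before it and 50 after, GRCh38.p14) were matched by symbol for 29 of the 35 genes; MCL1, BCL2L2, BIK, CASP1, CASP10 and TRADD were not matched. A TEAD motif (GGAATG, either strand) was present in 1 of the 29 windows (3.45%), that of BBC3, against 14.03% of 35116 RefSeq windows. An interferon response motif (GAAA, any 2 bases, then GAAA, either strand), searched because the inflammatory caspases are interferon-inducible genes, was present in 3 of the 29 (10.3%), those of BBC3, BCL2A1 and CASP8, against 3.57% of all windows. The window of BBC3 is shown as the only one with a TEAD match, and those of RIPK1 and CASP4 because these 2 genes had the smallest p-values. All are written 5′ to 3′ on the strand of the gene, with motif matches in capitals.
BBC3: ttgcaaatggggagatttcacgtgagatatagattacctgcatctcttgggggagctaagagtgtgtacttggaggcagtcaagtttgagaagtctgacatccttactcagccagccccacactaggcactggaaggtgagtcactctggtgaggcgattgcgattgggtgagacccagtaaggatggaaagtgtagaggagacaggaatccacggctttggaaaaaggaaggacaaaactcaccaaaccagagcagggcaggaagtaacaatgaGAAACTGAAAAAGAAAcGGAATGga
RIPK1: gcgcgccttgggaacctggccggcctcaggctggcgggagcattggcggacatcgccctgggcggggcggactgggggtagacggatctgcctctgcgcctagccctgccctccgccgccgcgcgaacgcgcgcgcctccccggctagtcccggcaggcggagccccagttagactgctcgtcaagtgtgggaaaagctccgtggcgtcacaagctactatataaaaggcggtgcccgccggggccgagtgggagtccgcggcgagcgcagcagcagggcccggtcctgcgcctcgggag
CASP4: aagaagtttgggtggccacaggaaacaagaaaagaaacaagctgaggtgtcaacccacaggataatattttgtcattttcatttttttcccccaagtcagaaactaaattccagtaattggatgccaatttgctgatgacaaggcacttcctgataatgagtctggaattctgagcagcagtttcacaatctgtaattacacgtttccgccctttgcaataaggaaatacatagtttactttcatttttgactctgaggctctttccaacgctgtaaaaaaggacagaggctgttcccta
The BBC3 window is chr19:47232618-47232917 (minus strand), that of RIPK1 chr6:3063717-3064016 (plus strand) and that of CASP4 chr11:104968525-104968824 (minus strand). In BBC3 the TEAD match starts at base 43 after the start site, and 2 interferon-motif matches, which overlap each other and not the TEAD match, start at bases 26 and 32. The windows of RIPK1 and CASP4 hold neither motif and differ in composition, with a GC content of 72.0% and 36 CG dinucleotides in RIPK1 and 39.7% and 3 in CASP4. Other start sites and distal elements were not examined, and these letters show no binding.

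Anti-apoptotic BCL2 genes were lower in the knockdown in all 5 cases by sign, though BCL2A1 was at 0.071 without knockdown replicate 1 and 0.018 without control replicate 1, and none was called. MCL1, which encodes a short-lived protein that restrains BAK1, was at 342, 334 and 344 CPM in the knockdown libraries, against 384, 340 and 386 CPM in the controls. The knockdown libraries were close together, and the lowest control lay among them. Its log2 fold change was -0.12 (SE 0.093, edgeR adjusted p = 0.581). BCL2L1, which encodes BCL-XL, was at 149.7, 178.4 and 166 CPM in the knockdown, against 178.3, 223 and 189 CPM in the controls. The groups touched, with knockdown replicate 2 and control replicate 1 nearly equal and control replicate 2 above all others. It averaged 165 ± 14.4 CPM in knockdown and 197 ± 23.5 CPM in control cells (SD, n = 3 each; log2 fold change -0.26, SE 0.113, unadjusted p = 0.0439, edgeR adjusted p = 0.308). Without control replicate 2 it was -0.16 (edgeR adjusted p = 0.347, within a range over the alternatives of 0.0704 to 0.673). BCL2L2, which encodes BCL-W, averaged 20.6 ± 2.40 and 24.2 ± 2.64 CPM in knockdown and control cells (log2 fold change -0.23, edgeR adjusted p = 0.442).

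BCL2 itself and BCL2A1 were scarce. BCL2, the founding member of the family, was at 3.60, 2.61 and 2.82 CPM in the knockdown, against 4.37, 2.54 and 3.75 CPM in the controls, with overlapping groups (log2 fold change -0.24, SE 0.256, edgeR adjusted p = 0.711). Leaving out 1 library moved it between -0.065 (control replicate 1) and -0.44 (control replicate 2). BCL2A1, an NF-kB target that encodes BFL-1, had 12 to 36 counts per library in the knockdown and 17 to 47 in the controls, and its interval reached from 0.334-fold to 2.03-fold. It could therefore not be placed within 2-fold in either direction at this depth. Compared per kilobase of annotated exon, MCL1 and BCL2L1 made up nearly the whole of the summed level of these 5 genes. MCL1 took 60.5%, 56.5% and 58.6% in the knockdown libraries, against 59.1%, 51.2% and 58.4% in the controls. BCL2L1 took 34.9%, 39.8% and 37.3% in the knockdown, against 36.2%, 44.4% and 37.7% in the controls. Both shares overlapped between the groups, and control replicate 2 gave the lowest MCL1 and the highest BCL2L1 share. BCL2 took between 0.164% and 0.236% in the knockdown and between 0.142% and 0.250% in the controls. The splice forms of MCL1 and BCL2L1 that act in opposite directions are counted together in these data.

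**Figure D2:**
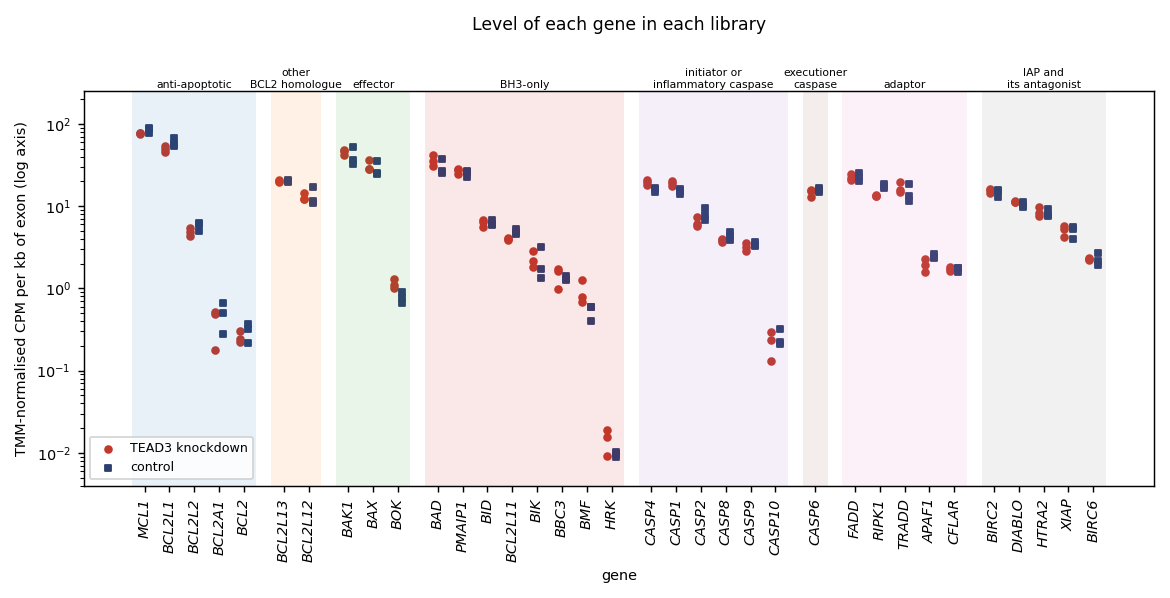
Level of each of the 35 genes in each library, as TMM-normalised CPM per kilobase of exon on a log axis, grouped by role and ordered within a role by the control mean, with knockdown libraries as circles to the left of control libraries as squares. MCL1 is the most abundant gene at 77.8 and 84.7 CPM per kilobase on average in knockdown and control cells, HRK is the least abundant, and the groups overlap for most genes.

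Of the other BCL2 homologues, BCL2L13, a mitochondrial outer membrane protein also known as a mitophagy receptor, was at 155, 150 and 157 CPM in the knockdown, against 153, 160 and 154 CPM in the controls, with fully mixed groups. Its log2 fold change was -0.02 (SE 0.088, the smallest of the 34 genes) with a 95% interval from -0.21 to 0.18. BCL2L12 was at 32.0, 27.4 and 27.1 CPM in the knockdown, against 24.5, 37.6 and 25.5 CPM in the controls, with control replicate 2 above all others (log2 fold change -0.02, edgeR adjusted p = 0.979). Its exons overlap IRF3 on the opposite strand.

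The effectors, whose products form the pore in the outer mitochondrial membrane, had positive fold changes in all 3 cases, though BAX was at -0.019 after correction for length and GC content and at -0.0013 without knockdown replicate 1, and none was called. BAX was at 94.5, 72.5 and 74.0 CPM in the knockdown, against 63.6, 90.6 and 66.3 CPM in the controls. Knockdown replicate 1 and control replicate 2 were the high libraries, so the groups overlapped (log2 fold change 0.13, SE 0.152, edgeR adjusted p = 0.750). BAK1 was at 105, 92.8 and 107 CPM in the knockdown, against 72.8, 115 and 80.2 CPM in the controls, and here control replicate 2 was above every knockdown library (log2 fold change 0.18, SE 0.155, edgeR adjusted p = 0.628). It was 0.40 without control replicate 2 (edgeR adjusted p = 0.0511, the lowest when 1 library was left out) and 0.055 without control replicate 1 (0.920, the highest). BOK, a BAX relative that can act without BH3-only proteins, was at 3.48, 2.73 and 2.95 CPM in the knockdown, against 1.81, 2.10 and 2.43 CPM in the controls. All knockdown libraries were above all controls, at 119 to 217 counts per library. The log2 fold change was 0.53 (SE 0.236, unadjusted p = 0.0456, edgeR adjusted p = 0.311), and reads of BOK and of its antisense gene BOK-AS1 cannot be told apart without strand. The summed level per kilobase of BAX and BAK1 relative to that of MCL1 and BCL2L1 was 0.679, 0.537 and 0.595 in the knockdown libraries, against 0.406, 0.599 and 0.426 in the controls. The groups overlapped through control replicate 2, and no test was made of this ratio.

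BH3-only genes encode the sensors that start the mitochondrial route. BMF, which responds to loss of attachment and to cytoskeletal stress, had the largest fold change of the 34 genes. It was at 4.27, 3.75 and 6.80 CPM in the knockdown, against 2.21, 3.24 and 3.23 CPM in the controls. All knockdown libraries were above all controls, with knockdown replicate 3 well above the other libraries of its group. It averaged 4.94 ± 1.63 CPM in knockdown and 2.89 ± 0.593 CPM in control cells (SD, n = 3 each), and the fit gave 1.71-fold (log2 fold change 0.77, SE 0.271, unadjusted p = 0.0158, edgeR adjusted p = 0.210). Without knockdown replicate 3 the log2 fold change was 0.47 (edgeR adjusted p = 0.625, the highest over the alternatives, of which the lowest was 0.0958). BMF occupies bases 40087890 to 40108892 of chromosome 15 (GRCh38, minus strand), and its exons overlap the antisense gene BMF-AS1.

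BCL2L11, which encodes BIM, a binder of all anti-apoptotic BCL2 proteins, was lower in the knockdown without overlap. It was at 26.5, 26.0 and 27.2 CPM in the knockdown, against 30.6, 35.2 and 32.6 CPM in the controls. The 3 knockdown libraries were close to each other and below every control. It averaged 26.6 ± 0.619 CPM in knockdown and 32.8 ± 2.27 CPM in control cells (log2 fold change -0.30, SE 0.108, unadjusted p = 0.0166, edgeR adjusted p = 0.213). It lies on chromosome 2 from 111119378 to 111168447 on the plus strand, with exons that overlap MIR4435-2HG on the opposite strand.

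The most abundant BH3-only genes per kilobase were BAD and PMAIP1. BAD, whose product is held inactive by phosphorylation downstream of growth factor signalling, was at 71.7, 51.9 and 59.9 CPM in the knockdown, against 43.8, 63.2 and 46.2 CPM in the controls. Control replicate 2 was the second highest of all 6 libraries, and the groups overlapped (log2 fold change 0.26, SE 0.159, edgeR adjusted p = 0.466, and 0.06 after the length and GC correction). Leaving out 1 library moved it between 0.13 (knockdown replicate 1) and 0.44 (control replicate 2). PMAIP1, which encodes NOXA, a binder of MCL1, was at 62.1, 54.6 and 63.5 CPM in the knockdown, against 58.9, 50.1 and 59.3 CPM in the controls (log2 fold change 0.10, SE 0.111, edgeR adjusted p = 0.733). BBC3, which encodes PUMA, a target of p53 and of stress factors such as CHOP, was at 5.46, 3.12 and 5.13 CPM in the knockdown, against 4.13, 4.55 and 4.08 CPM in the controls. Knockdown replicate 2 was the lowest of all libraries and the other 2 knockdown libraries the highest, so the groups were interleaved (log2 fold change 0.10, edgeR adjusted p = 0.893). BID averaged 28.0 ± 2.86 and 27.9 ± 2.25 CPM in knockdown and control cells, and BIK 2.17 ± 0.510 and 1.98 ± 0.919 CPM. HRK, a mostly neuronal BH3-only gene, had 8, 4 and 7 counts in the knockdown libraries, against 4 in each control, too few to test.

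**Figure D3:**
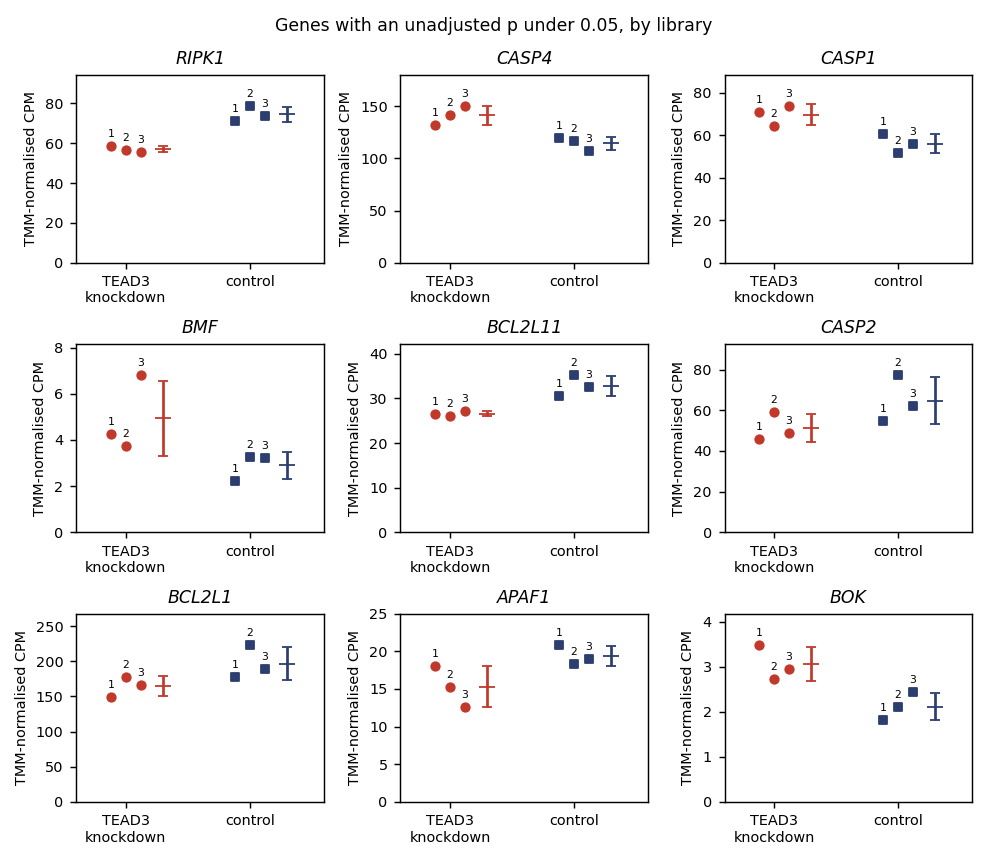
TMM-normalised CPM by library for the 9 genes with an unadjusted p under 0.05, in order of p, with points numbered by replicate and the mean ± SD (n = 3) beside each group. RIPK1, BCL2L11 and APAF1 lie below every control and CASP4, CASP1, BMF and BOK above every control in the knockdown, while CASP2 and BCL2L1 overlap.

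CASP1 and CASP4, the inflammatory caspases, were both higher in the knockdown by sign and without overlap. CASP4 senses cytosolic lipopolysaccharide and CASP1 matures interleukin-1 beta in inflammasomes, and both cleave gasdermin D in pyroptosis. CASP4 was at 132, 142 and 150.5 CPM in the knockdown, against 119, 117 and 107 CPM in the controls. It averaged 142 ± 9.05 CPM in knockdown and 114 ± 6.39 CPM in control cells (SD, n = 3 each; log2 fold change 0.31, SE 0.097, unadjusted p = 0.00873, edgeR adjusted p = 0.167). DESeq2 called it as higher (adjusted p = 0.0481), and after the length and GC correction it was not called (0.28, edgeR adjusted p = 0.145). Over all alternatives its adjusted p lay between 0.0481 and 0.539, always with a positive fold change. CASP1 was at 71.2, 64.3 and 73.9 CPM in the knockdown, against 60.4, 51.8 and 56.1 CPM in the controls, so that its lowest knockdown library was above its highest control. Its log2 fold change was 0.32 (SE 0.106, unadjusted p = 0.0123, edgeR adjusted p = 0.192, DESeq2 adjusted p = 0.0746). Both genes lie on the minus strand of chromosome 11, CASP4 from 104942866 to 104969436 and CASP1 from 105025443 to 105035250. Per kilobase they were the most abundant initiator or inflammatory caspases, at 19.5 and 15.8 CPM per kilobase for CASP4 and 18.9 and 15.2 for CASP1 in knockdown and control cells.

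The 4 initiator caspases of apoptosis had negative fold changes, and none was called. The sign did not hold under every alternative for CASP9, at 0.0068 after correction for length and GC content and 0.00075 without knockdown replicate 3, or for CASP10, at 0.081 without knockdown replicate 2 and 0.025 without control replicate 2. CASP2, which acts in the PIDDosome after DNA or centrosome damage, was at 45.6, 59.1 and 49.0 CPM in the knockdown, against 54.6, 77.1 and 62.3 CPM in the controls. Knockdown replicate 2 lay above control replicate 1, so the groups overlapped. The log2 fold change was -0.34 (SE 0.144, unadjusted p = 0.0397, edgeR adjusted p = 0.296) and -0.19 without control replicate 2 (edgeR adjusted p = 0.402, within a range over the alternatives of 0.184 to 0.655). CASP8, the initiator at death receptors, averaged 27.8 ± 0.914 and 31.4 ± 3.53 CPM in knockdown and control cells (log2 fold change -0.17, edgeR adjusted p = 0.518). CASP9, the initiator of the apoptosome, averaged 16.97 ± 2.03 and 18.0 ± 1.10 CPM (-0.08, edgeR adjusted p = 0.832), and CASP10, a CASP8 relative, 1.67 ± 0.630 and 1.91 ± 0.470 CPM (-0.19, edgeR adjusted p = 0.852). CASP6, an executioner that cleaves nuclear lamins, was at 30.5, 29.7 and 25.2 CPM in the knockdown, against 32.3, 29.2 and 30.9 CPM in the controls, with overlapping groups (-0.11, edgeR adjusted p = 0.707).

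RIPK1 had the smallest p-value of the 34 genes. It encodes the kinase that scaffolds survival signalling at the TNF receptor and that can also start apoptosis through CASP8 or necroptosis through RIPK3. RIPK1 was at 58.5, 56.8 and 55.8 CPM in the knockdown, against 71.3, 78.8 and 73.6 CPM in the controls. The knockdown libraries spanned less than 3 CPM, and all lay below the lowest control. It averaged 57.1 ± 1.38 CPM in knockdown and 74.6 ± 3.82 CPM in control cells (SD, n = 3 each), 0.765-fold with a 95% interval from 0.662-fold to 0.885-fold. This was a log2 fold change of -0.39 (SE 0.095, unadjusted p = 0.00189), and the edgeR adjusted p of 0.101 missed the threshold, with 1.86% of all tested genes at this p or lower. RIPK1 was called as lower by DESeq2 (adjusted p = 0.0109), by edgeR after correction for length and GC content (-0.30, adjusted p = 0.0448) and by edgeR without control replicate 2 (-0.35, adjusted p = 0.0456, when 3.19% of all genes tested in that fit were called). Over all alternatives its adjusted p lay between 0.0109 and 0.407, always with a negative fold change. It lies on chromosome 6 from 3063991 to 3115187 on the plus strand, and its exons overlap the gene AL031963.3 on the opposite strand.

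The remaining adaptors did not separate, apart from APAF1. APAF1, the scaffold of the apoptosome, was at 18.1, 15.3 and 12.6 CPM in the knockdown, against 20.9, 18.3 and 18.9 CPM in the controls. Knockdown replicate 1 lay just under the lowest control and the other 2 knockdown libraries farther below. The log2 fold change was -0.34 (SE 0.151, unadjusted p = 0.0454, edgeR adjusted p = 0.311), and -0.22 without knockdown replicate 3 (edgeR adjusted p = 0.721, the highest over the alternatives, of which the lowest was 0.197). APAF1 lies on chromosome 12 from 98645141 to 98735433 on the plus strand and overlaps ANKS1B on the opposite strand. FADD, the adaptor that brings CASP8 to death receptors, was the most abundant adaptor per kilobase and was at 45.0, 37.9 and 40.8 CPM in the knockdown, against 41.4, 46.6 and 37.7 CPM in the controls, with mixed groups (log2 fold change -0.02, SE 0.118, edgeR adjusted p = 0.962). TRADD, the adaptor of TNF receptor 1, was at 50.0, 37.8 and 40.5 CPM in the knockdown, against 33.8, 47.5 and 30.0 CPM in the controls (0.20, SE 0.172, edgeR adjusted p = 0.623). Control replicate 2 was again the high control and lay within the knockdown range, and the value was 0.42 without it and 0.073 without control replicate 3. CFLAR, which encodes the CASP8 inhibitor FLIP, averaged 38.8 ± 1.99 and 38.5 ± 2.85 CPM (0.01, edgeR adjusted p = 0.979), with its long and short splice forms counted together.

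None of the IAP genes or the genes of their mitochondrial antagonists was called. Log2 fold changes of the 5 lay between 0.0054 (BIRC6) and 0.12 (DIABLO), and the smallest edgeR adjusted p was 0.607. The positive signs of XIAP, BIRC6, HTRA2 and BIRC2 did not hold under every alternative. XIAP was at -0.088 and BIRC6 at -0.099 without control replicate 2, and BIRC6 at -0.0092 with library size alone as the scaling. HTRA2 was at -0.061 without knockdown replicate 1 and at -0.017 after correction for length and GC content, and BIRC2 was at -0.0053 without control replicates 1 and 2 together. BIRC2, which encodes cIAP1, the ubiquitin ligase that acts on RIPK1, was at 72.1, 65.2 and 73.5 CPM in the knockdown, against 69.7, 59.2 and 70.4 CPM in the controls. Replicate 2 was the lowest library in both groups, and the groups overlapped (0.08, SE 0.107, edgeR adjusted p = 0.782). DIABLO, which encodes SMAC, was at 78.7, 76.4 and 75.2 CPM in the knockdown, against 69.4, 76.6 and 65.5 CPM in the controls. Only control replicate 2 reached the knockdown range (0.12, SE 0.099, edgeR adjusted p = 0.607). A further annotated identifier of DIABLO, which shares exons with it, had 3 to 12 counts per library in the knockdown and 0 to 21 in the controls and was left out. XIAP, the direct inhibitor of active caspases, averaged 45.8 ± 6.72 and 44.3 ± 7.63 CPM in knockdown and control cells, and BIRC6 40.6 ± 1.15 and 40.4 ± 6.74 CPM. HTRA2, a mitochondrial protease, averaged 25.6 ± 3.13 and 24.9 ± 2.79 CPM, and its exons overlap AUP1 and LOXL3 on the opposite strand.

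**Figure D4:**
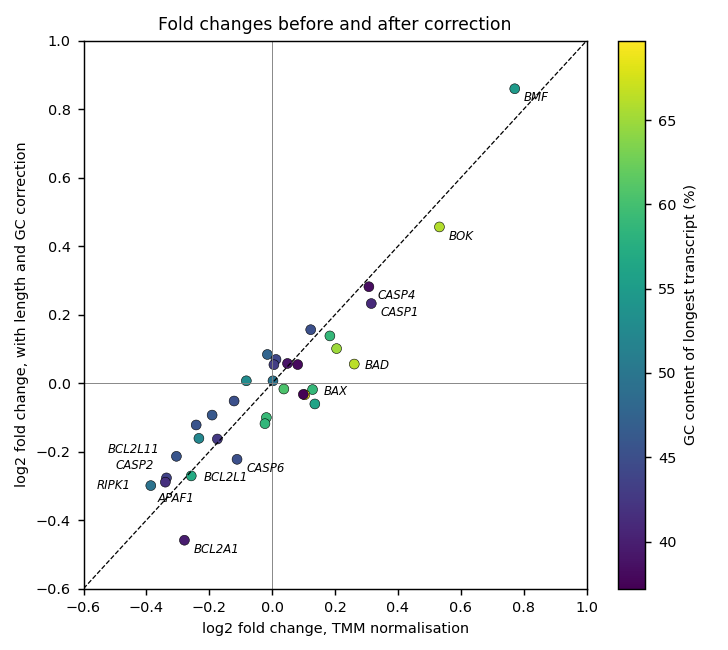
Log2 fold change (knockdown over control) of the 34 tested genes with TMM normalisation, on the horizontal axis, and after correction of each library for transcript length and GC content, on the vertical axis, coloured by the GC content of the longest transcript. BMF, BOK, CASP1 and CASP4 stay above 0 and RIPK1, APAF1, CASP2, BCL2L1 and BCL2L11 below 0, while BAX crosses to -0.019.

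Correction for transcript length and GC content left the 9 genes with an unadjusted p under 0.05 on their side of 0 and turned the sign of 7 others. The 9 were picked by p from these same data, so their signs were unlikely to turn. With the correction, 6 members had an unadjusted p under 0.05. The share of all tested genes at this p was not taken in the corrected fit, so the 6 cannot be weighed against the 9. The 7 were BCL2L13, BAX, BIK, BBC3, PMAIP1, CASP9 and HTRA2, all between -0.061 and 0.084 after correction. Corrected log2 fold changes were 0.86 for BMF, 0.46 for BOK, 0.23 for CASP1, -0.21 for BCL2L11, -0.28 for CASP2, -0.27 for BCL2L1 and -0.29 for APAF1, with edgeR adjusted p between 0.0704 (BCL2L1) and 0.378 (CASP2).

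Around these genes, 6 lists of the wider cell death pathway were read from the same fit, beside the 0.655% of all tested genes that edgeR called. The lists were chosen with earlier results of these data known, so their counts describe the lists and are no independent evidence. The first list held 15 genes, which were transcription factors known to act on BCL2 family genes, together with the genes CHAC1, TRIB1 and TRIB3. At an unadjusted p under 0.05, 5 were higher and 1 lower, against 8.15% and 7.43% of all tested genes. Without overlap between the groups the counts were also 5 and 1, against 11% and 10.6%. Their summed level was 1282.5 to 1313 CPM in the knockdown and 1112 to 1179 CPM in the controls. Called by edgeR, 1 rose, DDIT3, and none fell, with a list median of 0.05. This call was lost without knockdown replicate 1 (edgeR adjusted p = 0.0577), without knockdown replicate 3 (edgeR adjusted p = 0.0697) and without control replicates 1 and 2 together (edgeR adjusted p = 0.173), with log2 fold changes of 0.72, 0.82 and 0.74. DDIT3 encodes CHOP, an activator of BBC3 and BCL2L11 in endoplasmic reticulum stress, and was at 102, 81.2 and 89.2 CPM in the knockdown, against 51.9, 49.2 and 54.3 CPM in the controls (log2 fold change 0.81, SE 0.110, edgeR adjusted p = 0.00931; range over the alternatives 2.44e-09 with DESeq2 to 0.173). In the same libraries the log2 fold change of BBC3 was 0.10 and that of BCL2L11 -0.30, neither of them called by edgeR. Any link of these with DDIT3 was not tested. Exons of DDIT3 overlap other genes on both strands. MYC averaged 31.2 ± 3.23 and 20.0 ± 2.68 CPM in knockdown and control cells (0.65, edgeR adjusted p = 0.0655), and TRIB3, a stress pseudokinase gene induced by CHOP, 47.7 ± 4.92 and 28.7 ± 6.28 CPM (0.73, edgeR adjusted p = 0.0683). Corrected for length and GC content, edgeR called 3 genes of this list as higher, against 3.18% of all tested genes called. DESeq2 called 4 as higher, against 5.43% of all genes it adjusted.

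The other 5 lists held no gene called by edgeR. Among 9 caspase substrates and DNA fragmentation genes, an unadjusted p under 0.05 was reached by 4 with lower levels and by none with higher levels (7.43% of all tested genes were lower at this p), and in 5 the knockdown libraries lay below every control, against 10.6% of all tested genes. The median was -0.27, and -0.19 after the length and GC correction, when none was called, against 3.18% of all tested genes. DESeq2 called 2 of the 9 as lower, PARP1 and LMNB1, against 5.43% of all genes it adjusted. PARP1, a DNA repair enzyme cleaved by caspases, averaged 210 ± 6.19 and 265 ± 10.2 CPM in knockdown and control cells (log2 fold change -0.34, edgeR adjusted p = 0.118). LMNB1, a nuclear lamina gene, averaged 69.9 ± 4.69 and 93.3 ± 10.7 CPM (-0.42, edgeR adjusted p = 0.121), and PAK2, a caspase-activated kinase gene, 126 ± 5.88 and 152 ± 13.8 CPM (-0.27, edgeR adjusted p = 0.234). Among 9 tested death receptor and ligand genes 1 was higher at an unadjusted p under 0.05, FAS, and none lower, with a median of 0.06, where 8.15% of all tested genes were higher at this p. FAS, a death receptor and p53 target, was at 40.0, 38.3 and 39.1 CPM in the knockdown, against 32.2, 27.7 and 31.2 CPM in the controls, without overlap (0.37, SE 0.107, edgeR adjusted p = 0.148). DESeq2 called it (adjusted p = 0.0399), as did edgeR after correction (0.31, adjusted p = 0.0458). These 2 methods called 5.43% and 3.18% of all genes.

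Among 13 genes of necroptosis and the TNF receptor complex, which surrounds RIPK1, 3 had an unadjusted p under 0.05, of which 2 stood higher and 1 stood lower, with a list median of -0.02, where 15.6% of all tested genes had such a p. TRAF1, an NF-kB target, averaged 9.54 ± 2.11 and 5.53 ± 1.25 CPM in knockdown and control cells (log2 fold change 0.79, edgeR adjusted p = 0.143). It was called by DESeq2 (adjusted p = 0.0209) and by edgeR after correction (0.89, adjusted p = 0.0369), which called 5.43% and 3.18% of all genes. TNFAIP3, which encodes the ubiquitin-editing enzyme A20, averaged 9.51 ± 1.40 and 6.57 ± 1.26 CPM (0.53, edgeR adjusted p = 0.230), and TRAF5 18.2 ± 1.64 and 22.3 ± 1.27 CPM (-0.29, edgeR adjusted p = 0.293). Of 8 tested further BCL2 homologues, caspases and IAP genes, 1 was higher at an unadjusted p under 0.05 and none lower, with a median of 0.0069, a share to be read against 8.15% of all tested genes. It was BIRC3, which encodes cIAP2, at 12.9 ± 1.17 and 9.45 ± 0.952 CPM (0.44, edgeR adjusted p = 0.196). Of 16 mitochondrial cell death factors, an unadjusted p under 0.05 was reached by 1, which was lower, with a median of -0.0044, against 7.43% of all tested genes. It was MOAP1, a BAX partner, at 25.9 ± 2.16 CPM in knockdown and 31.0 ± 1.198 CPM in control cells (-0.26, edgeR adjusted p = 0.304). CYCS, the gene of cytochrome c, averaged 202 ± 21.9 and 173 ± 2.60 CPM (0.22, edgeR adjusted p = 0.321).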

How the data were processed

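Polyadenylated RNA of 6 U251 libraries was sequenced in pairs of reads, per the labels' protocols. The authors deposited whole-number counts per Ensembl gene, not scaled for depth. Per the submitters' processing notes, HISAT2 2.0.4, cutadapt 1.9, edgeR, StringTie 1.3.4d and DESeq2 were used with GRCh38. The tool that wrote the counts, its annotation, its strand setting and its handling of multi-mapped reads were not given in the sources used here. Counts of genes whose exons overlap another gene are therefore uncertain.

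Symbols were matched by Ensembl identifier for 58477 of 60612 genes, and coordinates, exon lengths and overlaps came from GENCODE 29 (GRCh38). For DIABLO, which has 2 identifiers, that of the current symbol was used. The levels per kilobase divide CPM by the union of annotated exons, some of which the cells may not use. The main test was the two-sided quasi-likelihood F test of edgeR 4.0.16 in R 4.3.3, with TMM factors, filterByExpr (minimum of 10 counts) and group as the only term, called at an adjusted p under 0.05. SE and 95% intervals follow from its F statistic, are per gene and are not adjusted. A floor of 3 counts is 0.0463 to 0.0514 CPM, for counting error only. Alternatives were other scalings and filters, DESeq2 1.42.0, limma-voom (3.58.1), a replicate block, leaving out libraries, a threshold of 0.01, and a per-library loess correction (span 0.3) for transcript length and GC content, fitted on 9953 protein-coding genes. The procedure was tested on simulated counts without trends in GC content or length and without a deviating library. The simulation therefore does not show how it performs under the trends seen here.

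The members and lists were chosen with earlier results of these data known. All 35 members were named. Every library is given for members with an unadjusted p under 0.05 and no overlap, those called by DESeq2, and the 2 most abundant per kilobase of each role. Other members given by library were chosen after their values were seen. Of the wider lists, called genes and up to 3 with the smallest p were named.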

Additional observations from a re-analysis of the deposited data

How the results depend on the processing

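Of the alternatives, 3 moved the count of called members from 0: it was 2 with DESeq2, 1 with the length and GC correction, and 0 to 1 when 1 library was left out, with RIPK1 the 1 called without control replicate 2. The count over all genes was 116. It was 31 with no filter on low counts, 825 with DESeq2, 564 with the length and GC correction, 27 at an adjusted p under 0.01, 20 to 589 when 1 library was left out (knockdown replicate 3 and control replicate 2) and 27, with 0 members, without control replicates 1 and 2 together, which was chosen after seeing the data and leaves 1 control, assumed to vary like the knockdown libraries. With the replicate block 63 genes and 0 members were called. Deviations of libraries with the same number correlated at 0.07, -0.03 and -0.08, and not every library correlated best with its own number. These deviations were taken within groups of 3 libraries. They cannot show whether libraries of the same number shared a culture or a preparation.

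The median of the members stayed within 0.0719, the SD of that median over pairs of libraries, under every alternative run. Signs turned for 16 members, all between -0.28 and 0.14 in the fit reported, in 48 of 509 comparisons of a member with an alternative, and 457 kept both direction and side of the threshold. Corrected for length and GC content, the log2 fold change was 0.084 for BCL2L13, -0.019 for BAX, -0.061 for BIK, -0.034 for BBC3, -0.033 for PMAIP1, 0.0068 for CASP9 and -0.017 for HTRA2. With library size alone it was -0.010 for BID, -0.00042 for CFLAR and -0.0092 for BIRC6. With limma-voom it was 0.0095 for BCL2L12 and -0.0018 for BID, and with the replicate block 0.0051 for BCL2L12. Without control replicates 1 and 2 together it was 0.17 for BCL2L12, 0.13 for FADD, -0.044 for CFLAR, -0.043 for XIAP and -0.0053 for BIRC2. Leaving out 1 library at a time gave ranges from -0.56 to 0.071 for BCL2A1, -0.13 to 0.20 for BCL2L12, -0.032 to 0.0045 for BCL2L13, -0.0013 to 0.30 for BAX, -0.066 to 0.079 for BID, -0.10 to 0.57 for BIK, -0.040 to 0.32 for BBC3, -0.45 to 0.081 for CASP10, -0.17 to 0.00075 for CASP9, -0.093 to 0.058 for FADD, -0.051 to 0.050 for CFLAR, -0.088 to 0.16 for XIAP, -0.099 to 0.14 for BIRC6 and -0.061 to 0.13 for HTRA2. The causes were not tested. HRK was too shallow to test.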
